A study of Mus musculus with 2 samples.

Results

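The 40 genes described here encode proteins that copy DNA or supply and accompany that copying. They were chosen by gene symbol, with no measured value in the rule, but with earlier results of these data known. All 40 were among the 32285 genes in the deposited table. The cells came from mouse bone marrow and were sorted as natural killer progenitors (NKP), precursors of natural killer cells, by a gate that required CD122 and excluded cells with NK1.1, Ncr1, c-kit, Sca-1 or lineage markers. There was 1 single-cell RNA library labelled WT, from C57BL/6 mice, and 1 labelled Irf4-/-, from mice lacking interferon regulatory factor 4. The sources used here did not give age, sex, the number of mice pooled or the part of Irf4 removed. A genotype had no second library to serve as a replicate check. For that reason no test is given, and every interval is a 95% counting interval that covers counting error only. For a ratio of UMIs it takes each UMI as independent and leaves out the spread between cells.

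DNA replication is prepared before S phase, when Cdc6 and Cdt1 load the Mcm2 to Mcm7 ring onto origins. The ring becomes an active helicase when Cdc45 and the GINS complex join it. DNA polymerase alpha with its primase starts each strand, the polymerases delta and epsilon extend it, and Pcna, a ring that slides on DNA, is loaded by the RFC complex to hold them in place. Many of these genes are targets of E2F transcription factors and are transcribed as cells pass from G1 into S phase.

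The promoters of several of these genes are shown because E2F sites are the sequence feature best known to be shared among replication genes. RefSeq promoters (GRCm38.p6) were found for 34 of the 40 genes, and the 250 bases before each start site were searched on both strands for TTTCCCGC, TTTCGCGC, TTTGCCGC and TTTGGCGC, which can overlap each other. Capitals mark a match on either strand. Each stretch is 60 bases long and lies outside annotated exons, in an intron for Cdc6 and for Uhrf1, whose match precedes an alternative start site, and upstream of the gene for the others, and the last pair below, from Mcm10 and Rfc1, has no match.
Mcm5, chr8:75109332-75109391, plus strand: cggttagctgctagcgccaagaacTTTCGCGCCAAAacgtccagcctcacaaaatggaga
Mcm6, chr1:128359780-128359839, minus strand: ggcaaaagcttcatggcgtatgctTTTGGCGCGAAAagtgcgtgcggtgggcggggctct
Cdc6, chr11:98907987-98908046, plus strand: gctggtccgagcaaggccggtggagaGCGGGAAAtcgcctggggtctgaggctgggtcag
Dtl, chr1:191575545-191575604, minus strand: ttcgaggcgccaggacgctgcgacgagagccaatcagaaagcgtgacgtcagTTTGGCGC
Pola1, chrX:93632260-93632319, minus strand: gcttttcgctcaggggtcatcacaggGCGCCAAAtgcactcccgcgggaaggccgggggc
Uhrf1, chr17:56304102-56304161, plus strand: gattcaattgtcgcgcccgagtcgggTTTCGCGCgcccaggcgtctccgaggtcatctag
Mcm10, chr2:5012792-5012851, minus strand: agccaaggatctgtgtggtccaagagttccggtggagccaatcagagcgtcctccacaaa
Rfc1, chr5:65335671-65335730, minus strand: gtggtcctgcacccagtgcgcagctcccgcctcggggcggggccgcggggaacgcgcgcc

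In Mcm5 and Mcm6 a pair of matches on opposite strands overlapped to form 1 run of capitals. A match was found in 12 of the 34 replication genes (35.3%), against 2.16% of 27025 genes in the same table. CCAAT, the NF-Y box, was found in 64.7% of the replication genes and in 37.5% of all genes. TTTGAA, the core of the element known from genes of G2 and mitosis, was found in 14.7% and 18.3%.

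Cells were kept with at least 500 genes, at least 1000 unique molecular identifiers (UMIs, counts of captured RNA molecules) and under 10% mitochondrial UMIs, which left 7955 cells labelled Irf4-/- and 12367 labelled WT. Throughout, values given as a pair have the library labelled Irf4-/- first. Kept cells had a median of 9540 and 7125 UMIs, so the library labelled Irf4-/- was the deeper of the pair. Of the kept barcodes, 25 occurred in both libraries. Levels are in UMIs per 1000000 (CPM), each class of a library being scaled to its own total. Irf4 itself was at 9.77 and 3.04 CPM over all kept cells, which goes against the labels unless the counted 3' end lies outside the deleted part. Such a count would check nothing, so each library is called by its label throughout.

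Clusters were made without the cell cycle genes and grouped by defining markers. In 11 clusters each of the 3 CD3 genes was detected in 50% of cells or more, and neither Cd79a nor the gamma-delta receptor gene Trdc was. These are called CD3-expressing cells, and they held 74.3% and 80.8% of kept cells, 5910 and 9991 cells. In these cells Cd3e was detected in 93.3%, so markers of T cells were present in cells that the gate names as natural killer progenitors. Over both libraries together, the natural killer gene Klrb1c was detected in 7.7% of these cells and Ncr1 in 0.2%. The gate itself excluded cells with NK1.1, the protein of Klrb1c, or Ncr1, so these low values cannot tell natural killer from T cells. A list of 10 T cell genes summed to 5440 and 5564 CPM, and 8 genes of natural killer and related cells to 323 and 236 CPM. Over both libraries together, all 10 of the former and 2 of the latter were detected in at least 25% of these cells. Clusters 7 and 11 of this group had the natural killer gene Fcer1g among their 10 leading genes. Receptor genes of the Klr families were also among the leading genes of some clusters. These were Klrc1, Klre1, Klrk1 and Klrc2 in cluster 6, of 1061 and 204 cells, and Klra7, Klra1, Klra6, Klra9, Klre1, Klrk1 and Klrc2 in cluster 7. Clusters 11 and 12 had Klrb1a and Klra3. Clusters 4 and 13 had Cd8a and Cd8b1 among theirs. Leading genes were ranked against all other cells, so genes shared by the whole group, such as CD3 genes, are unlikely to be among them. Cd3d was detected in 99.9% of cells in cluster 7 and Trac in 95.8%. In cluster 11 Cd3d was detected in 99.6% and Trac in 89.9%, and in cluster 6 Cd3d in 99.8% and Trac in 91.5%. The other classes were 1 gamma-delta T-like cluster of 802 and 1192 cells, 1 progenitor B-like cluster with Vpreb1 of 385 and 114 cells, and 3 B-like clusters of 682 and 814 cells. Another cluster, of 96 and 166 cells, combined CD3 genes with Cd79a, was left unnamed and is part of values over all kept cells only.

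In CD3-expressing cells the library labelled Irf4-/- had more replication RNA at every stage of copying, from licensing to ligation. Summed over the 40 genes, they made up 1404 and 997 CPM. All 40 had a log2 ratio above 0, against 51.9% of the 13157 genes with at least 20 UMIs, and the median of the 40 was 0.56 against 0.01 over all those genes. Past 1.5-fold higher were 18 of 40, against 6.38% of all genes, and past 1.5-fold lower were none of the 40 (0 of 40), against 4.76% of all genes. The counting interval lay above 0 for 38 of 40, against 25% of all genes, with Gins3 and Rpa2 the exceptions. The clusters that held most of these cells differed between libraries: clusters 7, 6 and 12 held 1640, 1061 and 909 cells of the library labelled Irf4-/-, and clusters 13, 12 and 7 held 2790, 2091 and 1668 of the library labelled WT. With the clusters given equal shares in both libraries the median was 0.27. Without cluster 14, which was led by Hist1h2ap and Mki67 and held 306 and 224 cells, it was 0.38, an alternative chosen after seeing the data. The part of cluster makeup in the ratios was not tested further. Over all kept cells, which mix the classes, 40 of 40 genes were above 0 (57.9% of all genes) and 20 were past 1.5-fold higher (10.4% of all genes).

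**Figure D1:**
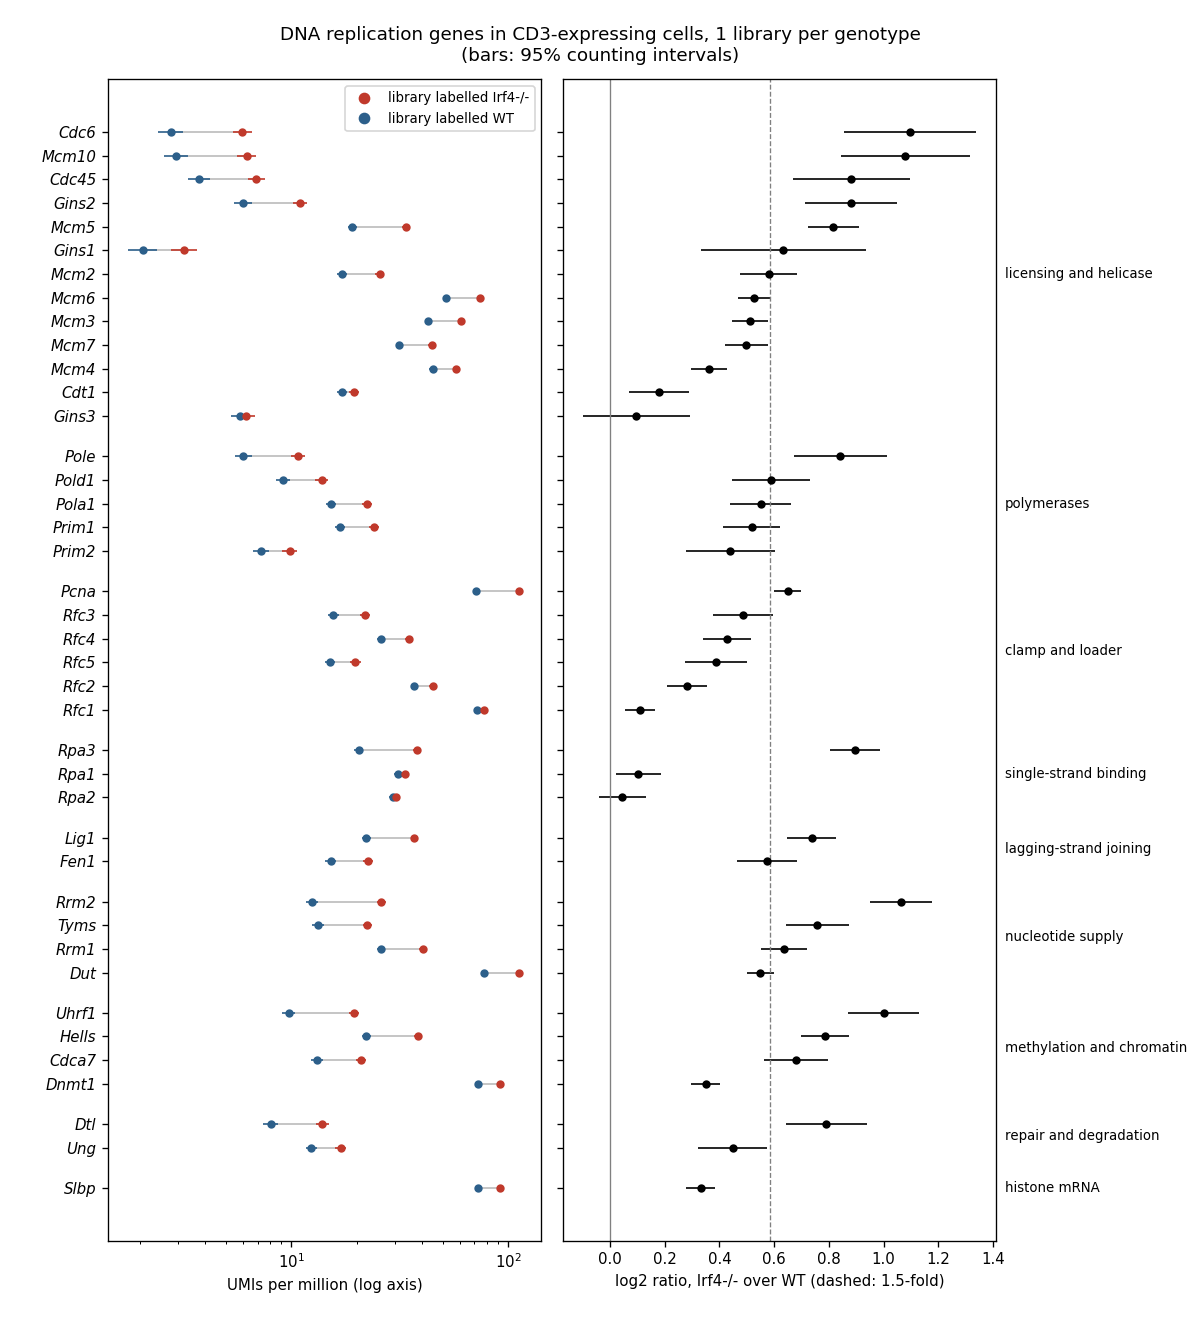
CPM (left, log axis) and log2 ratio of the library labelled Irf4-/- over the library labelled WT (right) for each of the 40 replication genes in CD3-expressing cells, grouped by role, with 95% counting intervals as bars and a dashed line at 1.5-fold. Every point on the right lies above 0, with Cdc6, Mcm10, Rrm2 and Uhrf1 at 1.0 or above and Gins3, Rpa1, Rpa2 and Rfc1 closest to 0.

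Among the licensing and helicase genes the highest ratios belonged to Cdc6, Mcm10, Cdc45 and Gins2, which act in loading or activating the ring. The lowest were those of Cdt1 and Gins3, which also act there, so the ring subunits lay between. Cdc6 (chr11:98907801-98923940 in GRCm38), the ATPase that loads the ring, was at 5.94 and 2.78 CPM, a log2 ratio of 1.10 (0.85 to 1.34). Mcm10, which helps to activate the helicase, was at 6.21 and 2.94 CPM (1.08, 0.84 to 1.32). Cdc45, the helicase cofactor, was at 6.90 and 3.74 CPM (0.88, 0.67 to 1.10). These 3 genes had between 223 and 454 UMIs per library, and none of their intervals reached below 0.67.

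The GINS subunits had unlike ratios. Gins2 was at 11 and 5.98 CPM, a log2 ratio of 0.88, and Gins1 was at 3.19 and 2.06 CPM, a ratio of 0.63. Gins3 was at 6.17 and 5.77 CPM, and its ratio of 0.10 had an interval of -0.10 to 0.29 that included 0. Cdt1, the licensing factor that is degraded when S phase starts, was likewise close to equal at 19.5 and 17.2 CPM, a ratio of 0.18 (0.07 to 0.29).

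The 6 subunits of the Mcm2 to Mcm7 ring, which work in equal numbers, had ratios between 0.36 and 0.82. Mcm5 (chr8:75109569-75128439) stood highest, at 33.7 and 19.1 CPM, a ratio of 0.82 (0.72 to 0.91). Mcm2 was at 25.6 and 17.1 CPM (0.58), and Mcm6 was at 74.5 and 51.7 CPM (0.53). In each of these the library labelled Irf4-/- was at least 1.4 times as high.
Mcm3 was at 60.8 and 42.7 CPM (0.51), and Mcm7 at 44.4 and 31.5 CPM (0.50). Mcm4 stood lowest of the ring at 57.6 and 44.8 CPM (0.36, 0.30 to 0.43), with an interval that did not overlap that of Mcm5. Mcm7 overlaps Cops6 and Ap4m1 on the opposite strand, and 9 of the 40 genes overlap another gene in this way.

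All 5 polymerase genes had a ratio above 0. Pole, the catalytic subunit of the leading-strand polymerase epsilon, was at 10.8 and 6.01 CPM, a log2 ratio of 0.84 (0.67 to 1.01). Pold1, the catalytic subunit of polymerase delta, was at 13.8 and 9.18 CPM (0.59), and Pola1, that of polymerase alpha, at 22.3 and 15.3 CPM (0.55). The primase genes followed, Prim1 at 24.1 and 16.8 CPM (0.52) and Prim2 at 9.83 and 7.24 CPM (0.44).

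The sliding clamp had a higher ratio than each subunit of its loader. Pcna (chr2:132249162-132253314), the clamp and a common marker of proliferating cells, was at 112 and 71.5 CPM, a ratio of 0.65 (0.60 to 0.70). The 4 small loader subunits had ratios from 0.28 to 0.49. Rfc3 was at 21.9 and 15.6 CPM (0.49), Rfc4 at 34.7 and 25.8 (0.43), Rfc5 at 19.8 and 15.1 (0.39) and Rfc2 at 44.9 and 37.0 (0.28). Rfc1 (chr5:65261850-65335670), the large subunit, was nearly level at 77.8 and 72.1 CPM, a ratio of 0.11 (0.05 to 0.16).

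The 3 subunits of replication protein A, which coats single-stranded DNA, were split. Rpa3, the smallest subunit, was at 38 and 20.4 CPM, a ratio of 0.90 (0.81 to 0.99). Rpa1, the largest, was at 33.4 and 31.1 CPM (0.10, 0.02 to 0.19), and Rpa2 at 30.3 and 29.4 CPM (0.05, -0.04 to 0.13). The interval of Rpa3 did not overlap those of the other subunits of its complex.

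For the joining of lagging-strand fragments, the ligase Lig1 was at 37.0 and 22.2 CPM (0.74) and the flap nuclease Fen1 at 22.6 and 15.2 CPM (0.57). Of the genes that supply nucleotides, Rrm2, the S-phase subunit of ribonucleotide reductase, had the highest ratio, 26.0 and 12.4 CPM (1.06, 0.95 to 1.18). Its partner Rrm1 was at 40.4 and 26.0 CPM (0.64). Tyms, which makes thymidylate, was at 22.4 and 13.3 CPM (0.76), and Dut, which removes dUTP, was at 113 and 77.1 CPM (0.55). Both reductase subunits were thus past 1.5-fold, and Dut was just under it.

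Genes that carry DNA methylation and chromatin through S phase also differed among themselves. Uhrf1, which recognises half-methylated DNA behind the fork, was at 19.5 and 9.74 CPM, a ratio of 1.0 (0.87 to 1.13). Dnmt1, the maintenance methyltransferase that Uhrf1 recruits, was at 92.2 and 72.4 CPM, a ratio of 0.35 (0.30 to 0.40). The chromatin remodeller Hells was at 38.2 and 22.2 CPM (0.79) and its partner Cdca7 at 21.0 and 13.1 CPM (0.68). Dtl, the ubiquitin ligase subunit that destroys Cdt1 on DNA-bound clamps, was at 13.9 and 8.04 CPM (0.79), and Ung, which cuts uracil out of DNA, at 16.9 and 12.4 CPM (0.45). Slbp, which binds the stem-loop of histone messages, was at 91.9 and 73.0 CPM (0.33).

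The ratios were also set against how far each gene's UMIs lay in a small set of cells rich in the other 39. For this, each cell was thinned at random to 2000 UMIs, which evens out depth, and a cell counted as rich in replication RNA for a given gene with at least 5 UMIs summed over the others. Of the Cdc6 UMIs in CD3-expressing cells 89.7% lay in such cells, as did 81.8% of those of Mcm10, 80.6% of Rrm2 and 66.1% of Uhrf1. At the other end stood Rpa1 with 11.7%, Rfc1 with 12.6%, Rpa3 with 15.7% and Rpa2 with 16.1%. The 10 genes with the highest shares, 49.1% to 89.7%, had a median log2 ratio of 0.88, and the 10 with the lowest, 11.7% to 23.5%, had 0.23. Across the 40 genes Pearson's r was 0.84 and Spearman's rho 0.82, and 0.79 and 0.79 when the share was taken from the library labelled WT alone. This is a description across genes, which share the same libraries, cells and thinning and are not independent replicates. Rich cells, counted below, were a larger share of the library labelled Irf4-/-, so a gene confined to them tends to a higher ratio by construction. The share over both libraries also holds counts that enter the ratio. The correlation thus largely restates the difference in the share of rich cells and is no separate evidence. Rpa3 stood off the line, with a low share and a ratio of 0.90.

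**Figure D2:**
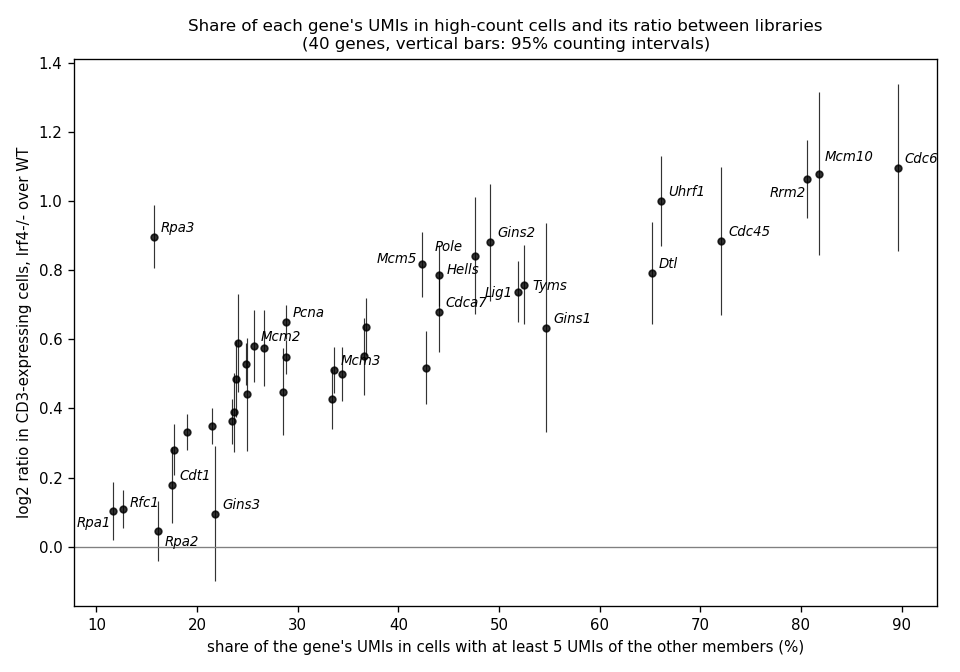
Log2 ratio of the library labelled Irf4-/- over the library labelled WT in CD3-expressing cells (vertical axis, 95% counting intervals as bars) against the share of each gene's thinned UMIs in cells with at least 5 UMIs of the other replication genes (horizontal axis, %), 1 point per gene. The points climb from Rpa1 and Rfc1 at the lower left to Cdc6, Mcm10 and Rrm2 at the upper right, and Rpa3 lies apart at the upper left.

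The ratios were then read within the rich cells and within the remaining ones. Sorting cells of both libraries by the same level of the other 39 genes brings the libraries closer by construction for genes that vary together, so these values are a description. Over all thinned CD3-expressing cells the median ratio of the 40 genes was 0.44. In rich cells it was 0.24, and in the remaining cells 0.11 among the 38 genes with at least 20 UMIs. No median over all genes is given for these cells, so where genes in general lay there is not shown. Rrm2 was at 104 and 100.4 CPM in rich cells (0.05, -0.33 to 0.44), Uhrf1 at 72.5 and 70.6 CPM (0.04, -0.42 to 0.50) and Cdc6 at 23.6 and 21.7 CPM (0.12, -0.72 to 0.97). These 3 intervals were wide and included 0.
The intervals of some other genes in rich cells lay above 0. Gins2 was at 51.3 and 21.9 CPM there (1.23, 0.52 to 1.98), Hells at 151 and 101 CPM (0.58, 0.23 to 0.94) and Pcna at 330.1 and 259.6 CPM (0.35, 0.11 to 0.58). Rpa3 had similar ratios in rich cells (0.81, 0.26 to 1.38) and in the remaining ones (0.84, 0.62 to 1.06).

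Rich cells were also counted, now with all 40 genes in the sum. By this count, 618 of 5901 CD3-expressing cells (10.5%, 9.70% to 11.3%) in the library labelled Irf4-/- had at least 5 of 2000 UMIs from them, and 529 of 9962 (5.31%, 4.88% to 5.77%) in the library labelled WT. The log2 ratio of these shares was 0.98. Without cluster 14 the shares were 6.92% and 3.80%. Unthinned, the shares were 75.5% and 54.2%, which also carry the difference in depth. Cells over the limit averaged 9.15 and 8.40 thinned UMIs of the 40 genes and cells under it 1.37 and 1.32, means that the limit itself bounds from below and from above. Cells over the limit held 43.9% of the replication gene UMIs in the library labelled Irf4-/- and 26.4% in the library labelled WT.
Cells at or over the limit were also deeper before thinning, with medians of 16704 and 11563 UMIs against 9850 and 7327 in the cells under it. The limit cuts a continuous range: 4.54% and 4.49% of cells had exactly 4 UMIs and 2.44% and 1.73% exactly 5.
At higher limits the ratio of the shares was larger, while their difference in percentage points was smaller. The shares were 25.5% and 20.1% of cells at 3 or more UMIs (log2 ratio 0.34), 3.86% and 1.57% at 10 or more (1.30), and 0.356% and 0.080% at 20 or more (2.15), the last resting on 21 and 8 cells. Thinning to 4000 UMIs at the same limit of 5 gave 25.7% and 19.2%, a log2 ratio of 0.42.

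**Figure D3:**
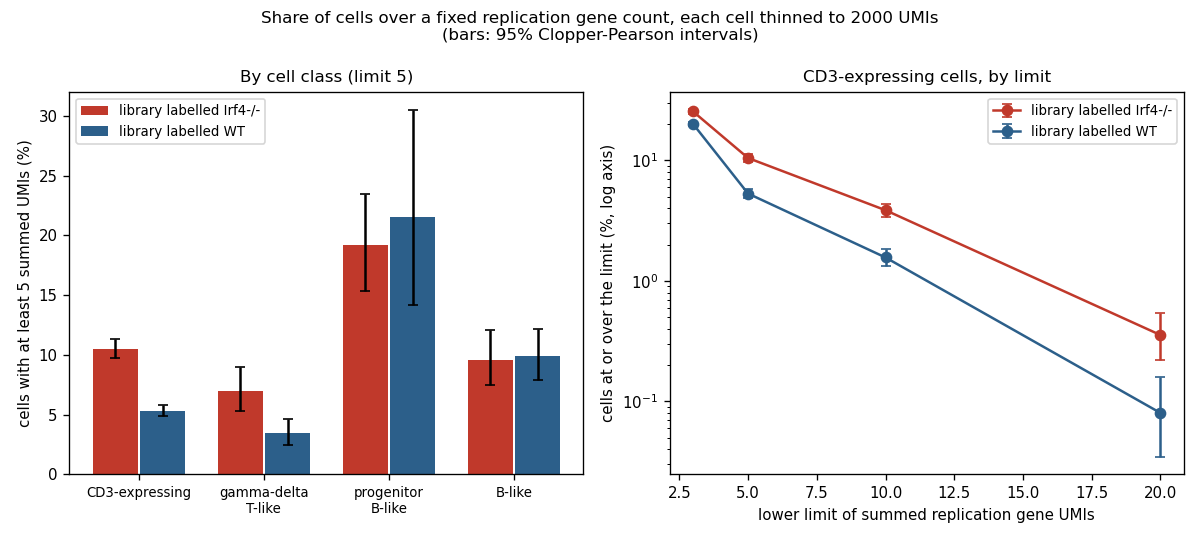
Left, percent of cells with at least 5 summed UMIs of the 40 replication genes after thinning to 2000 UMIs, by cell class and library. Right, the same percent in CD3-expressing cells at limits of 3, 5, 10 and 20 UMIs on a log axis, with 95% Clopper-Pearson intervals as bars. CD3-expressing cells have shares of 10.5% and 5.31%, gamma-delta T-like ones 6.99% and 3.45%, and the intervals overlap in both B lineage classes.

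By cluster, the share of cells over the limit was higher in the library labelled Irf4-/- in all 10 clusters with at least 50 CD3-expressing cells in each library, though not by more than the counting error in each. In cluster 4, led by Gzmm and Cd8b1, it was 10.5% (8.19% to 13.2%) and 4.38% (3.29% to 5.69%). In cluster 12, led by 4933440M02Rik and Drc1, it was 6.09% and 3.03%, and in cluster 7, led by the receptor genes Klra7 and Klra1, 7.62% and 4.68%. The intervals of the libraries did not overlap in these 3 clusters.
Cluster 14, led by Hist1h2ap and Mki67, held 306 of 5910 and 224 of 9991 CD3-expressing cells, so it was a larger part of the library labelled Irf4-/-. Within the cluster the share over the limit differed little, at 75.5% (70.3% to 80.2%) and 71.0% (64.6% to 76.8%). Its summed replication RNA was 4764 and 4615 CPM. Cluster 14 held 231 of the 618 cells over the limit (37.4%) in the library labelled Irf4-/- and 159 of 529 (30.1%) in the library labelled WT. Summed over the 40 genes, the log2 ratio was 0.57 in cluster 4, 0.31 in cluster 7 and between 0.23 and 0.47 in clusters 10 to 13. It was 0.08 (-0.01 to 0.16) in cluster 6 and 0.04 (-0.04 to 0.12) in cluster 3, intervals that included 0. In cluster 14 it was 0.05, and in cluster 15, led by the interferon-induced Ifit1 and Ifit3, it was -0.02. Cluster 20, led by Gzmk, had 9 and 338 cells and is not compared. Without clusters 7 and 11 the median over the 40 genes was 0.65, an alternative chosen after seeing the data.

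Cells were also picked by the helicase ring alone, so that the other 34 genes could be read in cells they had not helped to choose. At least 3 thinned UMIs of Mcm2 to Mcm7 were found in 3.85% (3.37% to 4.37%) and 1.91% (1.65% to 2.20%) of CD3-expressing cells, 227 and 190 cells. In them the other 34 genes summed to 3355 and 2955 CPM, and in the remaining cells to 758 and 626 CPM. The replication genes that were not used for the choice were thus several times as high in ring-rich cells of both libraries. Among the 31 genes with at least 20 UMIs in ring-rich cells the median ratio was 0.19, and among 34 in the rest it was 0.36. In ring-rich cells genes of quiescence summed to 1200 and 1608 CPM, against 1935 and 2289 CPM in the rest, and genes of G2 and mitosis to 2518 and 2442 CPM, against 760 and 660 CPM. Histone genes summed to 6253 and 7047 CPM in ring-rich cells and to 1474 and 1076 CPM in the rest, so they were lower in the library labelled Irf4-/- in the former and higher in the latter. Ring-rich cells had median depths of 16487 and 11910.5 UMIs, and the part of depth in these values was not tested beyond the thinning.

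Gamma-delta T-like cells had Trdc in 88.8% of cells, but also the alpha receptor gene Trac in 41.7%. A list of 10 gamma-delta genes summed to 1823 and 1940 CPM there, and 6 alpha-beta T cell genes to 1918 and 1984 CPM. The replication genes of this class gave ratios in the same direction. Of 38 replication genes with at least 20 UMIs, 37 had a ratio above 0 (47.1% of all genes) and 13 were past 1.5-fold higher (4.65% of all genes), with none past 1.5-fold lower (0 of 38, against 4.1% of all genes). The median was 0.41, against -0.02 over all genes. Uhrf1 was at 8.05 and 2.42 CPM (1.73, 0.95 to 2.59), Rrm2 at 3.11 and 1.08 CPM (1.53, 0.31 to 2.91) and Dtl at 7.20 and 3.23 CPM (1.16, 0.43 to 1.92). The lowest ratios were those of Rfc4, 21.5 and 20.9 CPM (0.04), Rfc1, 67.4 and 66.2 CPM (0.03), and Gins3, 5.93 and 6.19 CPM (-0.06).
Uhrf1, Rrm2 and Rfc1 thus stood at the same ends of the list as in CD3-expressing cells. Cells with at least 5 thinned UMIs were 6.99% (5.32% to 8.98%) and 3.45% (2.49% to 4.65%) of the class, and 67.8% and 44.3% unthinned. When the clusters were made with the cell cycle genes left in, the median over the replication genes was 0.10, and 4.60% and 2.95% of cells were over the limit.
The companion lists did not all share this direction in gamma-delta T-like cells. Of 27 histone genes 21 had a ratio below 0, with a median of -0.17. Genes of G2 and mitosis summed to 463 and 603 CPM, although 9 of the 13 with at least 20 UMIs had a ratio above 0, with a median of 0.28. Of 52 other replication genes 39 were above 0, with a median of 0.18.

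Progenitor B-like cells, in which Vpreb1, a surrogate light chain gene, was detected in 58.9% and Cd79a in all cells (100%), had the replication genes mostly on the other side. Only 8 of 40 had a ratio above 0, against 50.1% of all genes, and the median was -0.28 against 0.00. Past 1.5-fold higher were 2 of 40 (14.7% of all genes) and past 1.5-fold lower 8 of 40 (9.1% of all genes). Mcm5 was at 66.1 and 123 CPM (-0.89, -1.28 to -0.50), Pole at 20.2 and 37.3 CPM (-0.89, -1.60 to -0.14) and Gins1 at 12.5 and 21.8 CPM (-0.80, -1.72 to 0.21). The highest were Ung, 17.4 and 7.78 CPM (1.16, -0.16 to 2.85), Pold1, 75.2 and 42.0 CPM (0.84, 0.26 to 1.47), and Rpa3, 82.8 and 57.6 CPM (0.53, 0.02 to 1.07).
Mcm5, with the highest ratio of the ring in CD3-expressing cells, had the lowest here. The library labelled WT gave only 114 cells, with median depths of 4335 and 2606 UMIs, and with every cell given the same weight the median turned to 0.075. The share of cells over the limit was 19.2% (15.3% to 23.5%) and 21.5% (14.1% to 30.5%), intervals that overlap, and 37.7% and 24.6% unthinned. In the library labelled WT the thinned share was 23 of 107 cells. The intervals of single genes above leave out the spread between so few cells and are likely too narrow. With cells gated singly by markers the share was 20.8% and 61.5%, a log2 ratio of -1.56 (-2.64 to -0.28) that rests on 54 and 8 cells over the limit, and with another seed of the thinning the log2 ratio was 0.25.

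In B-like cells the replication genes were near level. A ratio above 0 was found for 21 of 40 (48.9% of all genes), with a median of 0.04 against -0.01 over all genes. Past 1.5-fold higher was 1 of 40 (7.08% of all genes) and past 1.5-fold lower were 2 of 40 (7.09% of all genes). Ung was at 19.1 and 9.25 CPM (1.05, 0.42 to 1.71), Gins2 at 17.6 and 11.7 CPM (0.58, -0.01 to 1.20) and Pold1 at 88.0 and 64.8 CPM (0.44, 0.19 to 0.70). Lowest were Gins1, 4.25 and 6.17 CPM (-0.54, -1.58 to 0.49), Cdc45, 8.51 and 12.9 CPM (-0.61, -1.32 to 0.09), and Prim1, 25.5 and 40.7 CPM (-0.67, -1.07 to -0.28).
Ung and Pold1 stood among the 3 highest ratios in both B lineage classes. The share of cells over the limit was 9.60% (7.49% to 12.1%) and 9.90% (7.90% to 12.2%), and unthinned it was 38.9% and 26.8%, with median depths of 4189 and 3049.5 UMIs. Rpa3 was the 1 gene with an interval above 0 in each class. Its ratio was 0.90 in CD3-expressing, 1.08 in gamma-delta T-like, 0.53 in progenitor B-like and 0.41 in B-like cells. The lower limits of those intervals were 0.81, 0.78, 0.02 and 0.08.

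**Figure D4:**
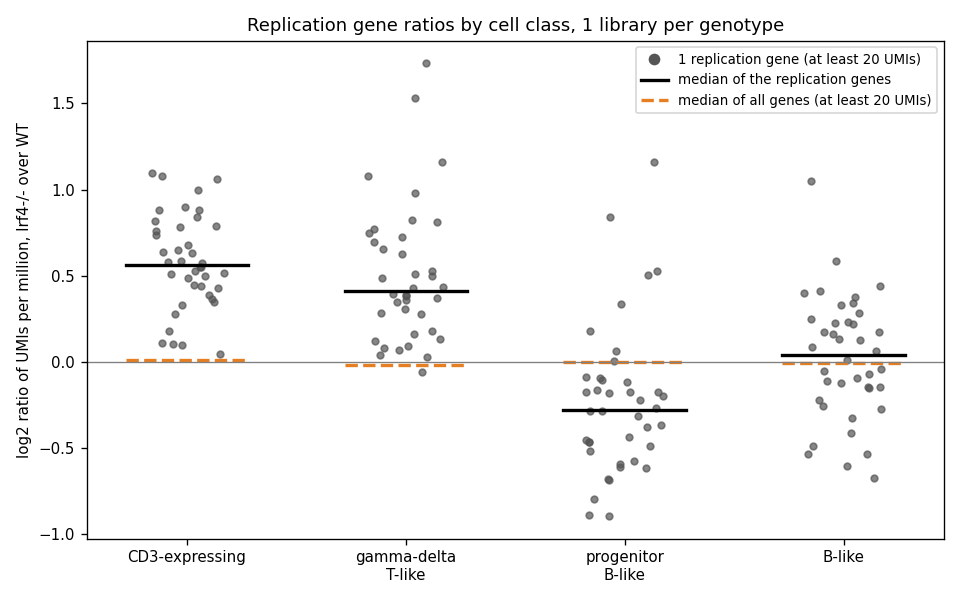
Log2 ratio of the library labelled Irf4-/- over the library labelled WT for each replication gene with at least 20 UMIs, by cell class, 1 point per gene, with the median of the replication genes as a black line and that of all genes as a dashed orange line. The medians of the replication genes are 0.56, 0.41, -0.28 and 0.04 from left to right, and those of all genes lie near 0.

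Other genes of the replication machinery and the cell cycle, from lists that do not overlap the 40, gave the following in CD3-expressing cells, where 51.9% of all genes had a ratio above 0 and 6.38% were past 1.5-fold higher. Of 61 other replication genes 54 were above 0 and 13 past 1.5-fold, with a median of 0.29. The highest were E2f7, a repressor of the E2F family, at 2.40 and 0.98 CPM (1.29), Orc1, the cell-cycle-regulated subunit of the origin recognition complex, at 1.97 and 0.89 CPM (1.16), the thymidine kinase Tk1 at 13.4 and 6.56 CPM (1.03) and the activator E2f1 at 5.89 and 2.95 CPM (1.0). The lowest were Chtf8 (-0.09), Pold4 (-0.13), Mcm9 (-0.13) and Donson (-0.20).
Of 15 S-phase repair genes 14 were above 0 and 8 past 1.5-fold, with a median of 0.73. Chek1, the checkpoint kinase of stalled forks, was at 8.51 and 3.90 CPM (1.12) and Msh6, of mismatch repair, at 15.4 and 15.4 CPM (-0.01). Of 30 genes of G2 and mitosis 29 were above 0 and 27 past 1.5-fold, with a median of 0.90. The mitotic checkpoint kinase Bub1 was at 8.26 and 3.83 CPM (1.11), and the exception was the condensin gene Smc4, at 317 and 395 CPM (-0.32).
Of 62 histone genes 56 were above 0 and 40 past 1.5-fold, with a median of 0.69, and Hist1h2ap was at 298 and 117 CPM (1.35). Histone genes have near-identical copies, so the value of a single 1 is uncertain. Of 12 genes of quiescence 3 were above 0, with a median of -0.28. Il7r, the interleukin 7 receptor gene, was at 271 and 499 CPM (-0.88) and Cdkn1b, an inhibitor of cyclin-dependent kinases, at 121 and 168 CPM (-0.47), while Cdkn2c, another such inhibitor, was at 16.3 and 9.47 CPM (0.79).

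The promoter matches did not set the ratios apart. The 12 genes with an E2F match had a median ratio of 0.61 in CD3-expressing cells, from Gins3 at 0.10 to Cdc6 at 1.10, and the 22 without a match had 0.56, from Rpa2 at 0.05 to Mcm10 at 1.08. A match describes letters in this window only, and its absence says nothing of a factor's binding.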

How the data were processed

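Per the file headers, Cell Ranger 6.1.1 made the deposited UMI counts, whole numbers for every gene in every cell barcode, and per the submitters' processing notes the build was mm10. The annotation release was not given in the sources used here. Gene positions came from the GENCODE annotation of GRCm38 and promoters from RefSeq. The counts of kept cells were scaled to 10000 per cell, log-transformed and clustered with scanpy 1.11.5 and igraph 0.11.9 (2000 variable genes, 30 components, 15 neighbours, resolution 1), with 245 cell cycle genes left out. Numeric limits for classes (50% of cells for CD3 genes, Cd79a and Trdc, 30% for Vpreb1) were set after the clusters were seen. No doublet caller was run and no doublets were removed. An alternative left out cells with both CD3 and Cd79a UMIs.

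UMIs were summed per library and class and divided by the class total (CPM). A ratio was used with at least 20 summed UMIs and has an exact conditional binomial 95% interval. Shares have Clopper-Pearson intervals. Thinning to 2000 UMIs left out 35 and 71 shallower cells of the libraries labelled Irf4-/- and WT. Kept cells held 82195217 and 94374447 UMIs. A UMI counts PCR copies of a molecule once. The code was tested on simulated data. The 40 genes and the other lists were chosen with earlier results of these data known. CPM is given for all 40 genes in CD3-expressing cells and for the 3 highest and 3 lowest ratios in the other classes. Of the other lists, the genes named come from the 4 highest and 4 lowest ratios.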

Additional observations from a re-analysis of the deposited data

Results flagged for a closer look

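For 15 of the replication genes the counting interval of the ratio, library labelled Irf4-/- over library labelled WT, lay above 0 in CD3-expressing or gamma-delta T-like cells and below 0 in a B lineage class, 37.5% of the 40. The same held for 427 of 9623 genes (4.44%) with at least 20 UMIs in a class of each kind. The difference between classes was not tested, since there was 1 library per genotype.

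Both Mcm3 (0.51, 0.51 and -0.44 in CD3-expressing, gamma-delta T-like and progenitor B-like cells) and Mcm4 (0.36, 0.53 and -0.47) belonged to the ring, as did Mcm5 (0.82, 0.39 and -0.89) and Mcm7 (0.50, 0.39 and -0.38). The polymerase gene Pola1 (0.55, 0.63 and -0.61), the ligase gene Lig1 (0.74, 0.69 and -0.52) and the nucleotide genes Rrm2 (1.06, 1.53 and -0.61) and Dut (0.55, 0.36 and -0.29) had the same order. In CD3-expressing against progenitor B-like cells alone, Pole had 0.84 and -0.89, Rfc4 0.43 and -0.59 and Slbp 0.33 and -0.46.

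Against B-like cells, the ratios were 0.52 and -0.67 for Prim1, 0.11 and -0.22 for Rfc1, 0.64 and -0.49 for Rrm1, 0.35 and -0.26 for Dnmt1 and 0.33 and -0.42 for Slbp. The progenitor B-like values rest on 114 cells of the library labelled WT, and their intervals leave out the spread between cells. Their median was -0.28 over 40 genes, and 0.075 over 29 genes when cells were thinned to the same weight.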

How the results depend on the processing

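Alternatives were set against the median ratios, the counts past 1.5-fold and the shares of cells. The values given next lay outside the interval of the main value (for a median, over the genes' ranks), differed by 1.5 times for a count, or turned a value whose interval excludes 0. The 89 others did not, but 10 of them had the other sign: B-like medians of -0.02 and -0.12 (main 0.04), and share ratios of 0.03 to 0.22 in B-like and 0.01 to 0.39 in progenitor B-like cells. With every cell given the same weight, medians were 0.44 over all kept cells (main 0.58), 0.44 in CD3-expressing, 0.28 in gamma-delta T-like and 0.075 in progenitor B-like cells, the last a change of sign. That setting used the thinned counts, so shallower cells were left out. Only 31 gamma-delta T-like and 29 progenitor B-like genes then had enough UMIs. In CD3-expressing cells the median was 0.27 with clusters reweighted and 0.38 without cluster 14. In gamma-delta T-like cells it was 0.10 with the cell cycle genes left in the clustering. In progenitor B-like cells it was -0.46 with at least 3000 UMIs and under 5% mitochondrial, and -0.66 with cells gated singly by markers. Past 1.5-fold higher were 7 gamma-delta T-like and 1 progenitor B-like genes at a minimum of 100 UMIs, and 2 B-like genes with the median of all genes set to 0.

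Log2 ratios of the shares moved most. Over all kept cells (main 0.90) and in CD3-expressing cells (0.98) they were 1.26 and 1.38 thinned to 1000 UMIs, 0.42 and 0.42 at 4000, 0.44 and 0.48 unthinned, and 0.32 and 0.34, 1.24 and 1.30, and 1.70 and 2.15 at limits of 3, 10 and 20. In gamma-delta T-like cells (main 1.02) they were 0.35 and 2.38 at limits of 3 and 10, and with 2 and 0 cells at 20 none was computed. In progenitor B-like cells (-0.17) they were 0.62 unthinned and -1.56 with cells gated singly, and in B-like cells (-0.04) 0.54 unthinned and -0.60 at 4000. The cause of these shifts was not tested. No paired analysis was possible because there was 1 library per genotype, which also leaves every difference here without a replicate. The small progenitor B-like class and low counts of single genes limit what could be detected.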
